A study of Gossypium hirsutum with 9 samples.

Results

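Gene expression in ovules of the lintless-fuzzless cotton line XinWX was compared between the day before anthesis and the day of flowering, -1 and 0 days post anthesis (DPA). The comparison rested on the XinWX channel of 6 of the 9 dual-dye arrays of the series, 3 at each stage, each of which also carried RNA of the same stage from the linted-fuzzless line XinFLM. Probes were tested where the intensity after subtraction of the local background reached 400 units in 1 of the 2 channels on at least 2 arrays of both stages, which left 22227 of 29183 different probes (76.2%). XinWX and XinFLM are isogenic upland cotton lines (Gossypium hirsutum), and XinWX forms neither lint nor fuzz whereas XinFLM forms lint. All groups were field-grown plants without treatment, flowers were hand-pollinated and tagged, and RNA came from mixtures of ovules and fibers. XinWX was labeled with Cy3 on replicates 1 and 3 of both stages and with Cy5 on replicate 2, the dye swap, so that the dye layout was the same at -1 and 0 DPA. By the methods there were 2 biological replicates plus a dye swap, with no word on which arrays share an extract, while the design text calls the 3 replicates biological. The p-values below treat every array as a separate sample and may measure technical spread in part.

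Lint fibers are single cells of the outer epidermis of the ovule that begin to bulge around anthesis. Jasmonic acid (JA) is made from a plastid fatty acid by lipoxygenase, allene oxide synthase, allene oxide cyclase and 12-oxophytodienoate reductase in turn, and several GH3 proteins join hormones such as auxin or JA to amino acids. Of the probes, 18 carried a gene name in the study, and no table pairing the other probes with genes was used here. Marker genes of ovule, fiber or other tissues could therefore not be scored, and the tissue label was not checked. In a mixed tissue, a change in the share of a cell type cannot be told apart from a change in RNA per cell.

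The median XinWX intensity was 922 to 1577 units on the arrays of -1 DPA and 1096 to 1347 units on those of 0 DPA. Between 70.6% and 80.1% of the probe spots of these arrays reached 400 units in the XinWX channel, and none of the 96 blank spots did on any array. Replicate 3 stood apart from replicates 1 and 2 at both stages. Its local background was higher in the Cy3 channel (384 and 430 units against 194 to 253), and the normalized log2 values of replicates 1 and 2 differed with a standard deviation (SD) over probes of 0.43 at -1 DPA and 0.41 at 0 DPA, against 0.60 to 0.73 for either of them with replicate 3. The 1 DPA array of replicate 3, which entered the estimate of the spread, correlated in the XinWX channel more closely with the arrays of both earlier stages (r = 0.87 to 0.90 across probes with -1 DPA and 0.89 to 0.92 with 0 DPA) than with the other arrays of 1 DPA (0.83 and 0.78). Values without these arrays are given beside the counts and beside several of the named probes.

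Between -1 and 0 DPA 99 probes changed in XinWX, with an adjusted p (false discovery rate, FDR) below 0.05 and at least a 2-fold change in limma's separate-channel analysis of all 9 arrays. They made up 0.445% of the probes tested. Of these differentially expressed probes 54 were higher at 0 DPA (0.243%) and 45 were lower (0.202%), with median changes of 2.79-fold and 2.86-fold. The log2 changes ran from 1.13 to 2.36 for the probes that rose and from -1.11 to -2.31 for those that fell, and 8 probes changed at least 4-fold. The typical probe moved far less, with a median absolute log2 change of 0.25 and a median standard error (SE) of 0.32 over all probes tested. At an unadjusted p under 0.05 there were 2110 probes (9.49%).

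On the 3 arrays of -1 DPA the median normalized log2 intensity of the 54 rising probes was 9.72, 9.65 and 9.70, and at 0 DPA it was 11.19, 11.22 and 11.26. For the 45 falling probes the medians were 12.14, 12.31 and 11.85 at -1 DPA and 10.35, 10.40 and 10.29 at 0 DPA. The median over all probes was 10.87 at -1 DPA and 10.85 at 0 DPA. Since the probes were chosen by the values of these arrays, and intensities of different probes are not comparable as levels of their transcripts, these medians only describe the lists. The 3 arrays of one stage lay entirely above or below those of the other for all 99 probes, which was also the case for 4593 of the probes tested (20.7%). Rising and falling probes lay in 38 of the 48 printing blocks of the array, with at most 8 in a block that held 423 to 497 tested probes. Whether they cluster on the array was not tested.

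**Figure D1:**
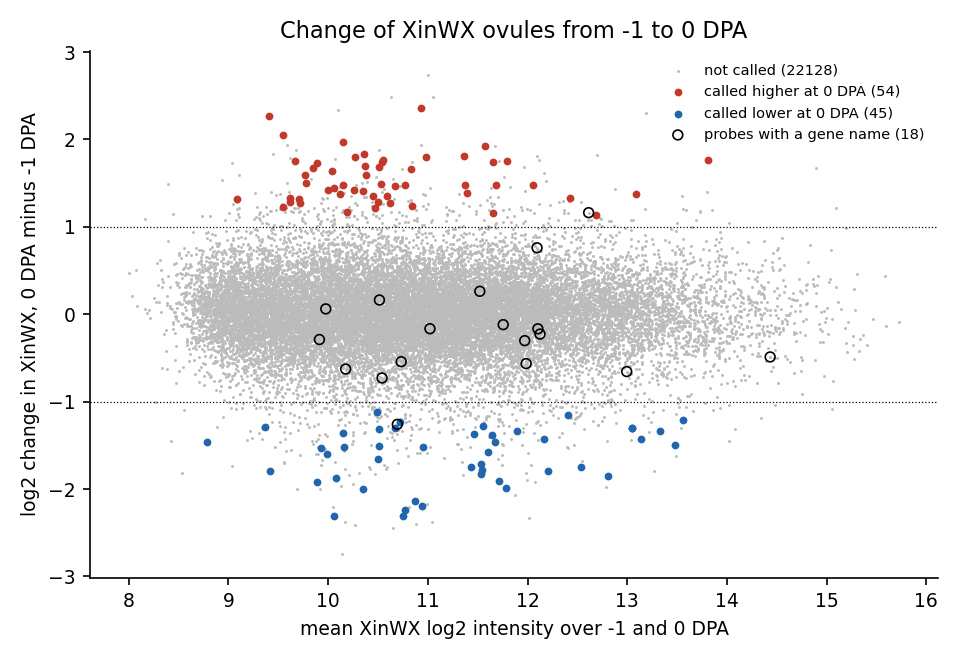
Log2 change of each probe in XinWX from -1 to 0 DPA (vertical axis) against its mean normalized log2 intensity (horizontal axis), with the 54 probes called higher in red, the 45 called lower in blue, the 18 probes with a gene name circled and the 2-fold limits dotted. None of the circled probes is coloured.

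How many probes passed varied with the arrays in the fit and with the treatment of replicates, and the cause was not tested. With the arrays of -1 and 0 DPA alone the count was 424, all 99 probes included, and blocking on the replicate number gave 258, again with all 99. When replicates 1 and 2 were averaged into 1 sample, as would be needed if they shared an extract, no probe passed (1159 at an unadjusted p under 0.05). Averaging replicates 2 and 3 instead gave 237, with 95 of the 99, and the sources do not say which of these averages, if any, is right. Leaving out 1 array gave between 1 and 361 probes. The count was 1 when replicate 1 or 2 of -1 DPA or replicate 2 of 0 DPA was left out. It was 70 without replicate 3 of -1 DPA, 4 without replicate 1 and 17 without replicate 3 of 0 DPA, and it was 187 without replicate 2 and 361 without replicate 3 of 1 DPA. Replicates 1 and 2 alone gave 330, of which 82 were among the 99. If these replicates shared an extract, that count would rest on technical spread alone.

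Probe 28K_260_H07 had the largest rise among the called probes that reached 400 units in 1 channel on every array. Its XinWX intensity was 727, 994 and 864 units on replicates 1, 2 and 3 of -1 DPA and 5669, 5298 and 2973 units at 0 DPA, so that every 0 DPA array lay well above every array of the day before. After normalization it rose 5.14-fold (log2 2.36, SE 0.33, FDR = 0.00613 in limma, n = 3 arrays per stage). It rose to a like extent in XinFLM (log2 2.23, FDR = 0.00300). At 1 DPA the XinWX intensity was 270, 198 and 675 units, under the limit on 2 of the 3 arrays, and below the level of -1 DPA on each.

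Probe 28K_146_G07 gave 1036, 625 and 259 units at -1 DPA and 2314.5, 1892 and 2568 units at 0 DPA. It rose 3.91-fold (log2 1.97, SE 0.36, FDR = 0.0169 in limma), and replicate 3 of -1 DPA was under the limit in XinWX. At 1 DPA the probe gave 1355 to 2394 units. The log2 change was 1.53 with replicates 1 and 2 alone and 2.81 on the replicate 3 arrays. In XinFLM its log2 change of 1.16 did not pass (FDR = 0.185). Neither of these probes has a gene name here.

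The largest fall by the same limit was that of 28K_133_G09, with 4423, 2964 and 6092 units at -1 DPA and 1202.5, 425.5 and 722.5 units at 0 DPA. It fell 4.96-fold (log2 -2.31, SE 0.43, FDR = 0.0187 in limma), and its arrays of -1 DPA scattered widely (SD 0.84 on the log2 scale). The log2 change was -1.90 with replicates 1 and 2 alone and -3.08 on the replicate 3 arrays. Probe 28K_297_E08 had a -1 DPA SD of 0.14, with 4882, 5544.5 and 2835.5 units at -1 DPA and 836, 861 and 629.5 units at 0 DPA, a 4.70-fold fall (log2 -2.23, SE 0.40, FDR = 0.0162). At 1 DPA the values lay between those of the earlier stages, at 1234.5 to 1716 units for 28K_133_G09 and 2100.5 to 2571 units for 28K_297_E08. Since both probes were chosen by their values at the earlier stages, this does not show a return. With replicates 1 and 2 averaged, all 4 of these probes kept changes of over 2-fold in the same direction but had an FDR of 0.439 or 0.444. None of the 4 passed without replicate 1 or replicate 2 of either stage, 28K_146_G07 failed without 0 DPA replicate 3 too, and 28K_133_G09 and 28K_297_E08 failed without any one of the 6 arrays (FDR from 0.0501 to 0.155 for the 4 probes).

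**Figure D2:**
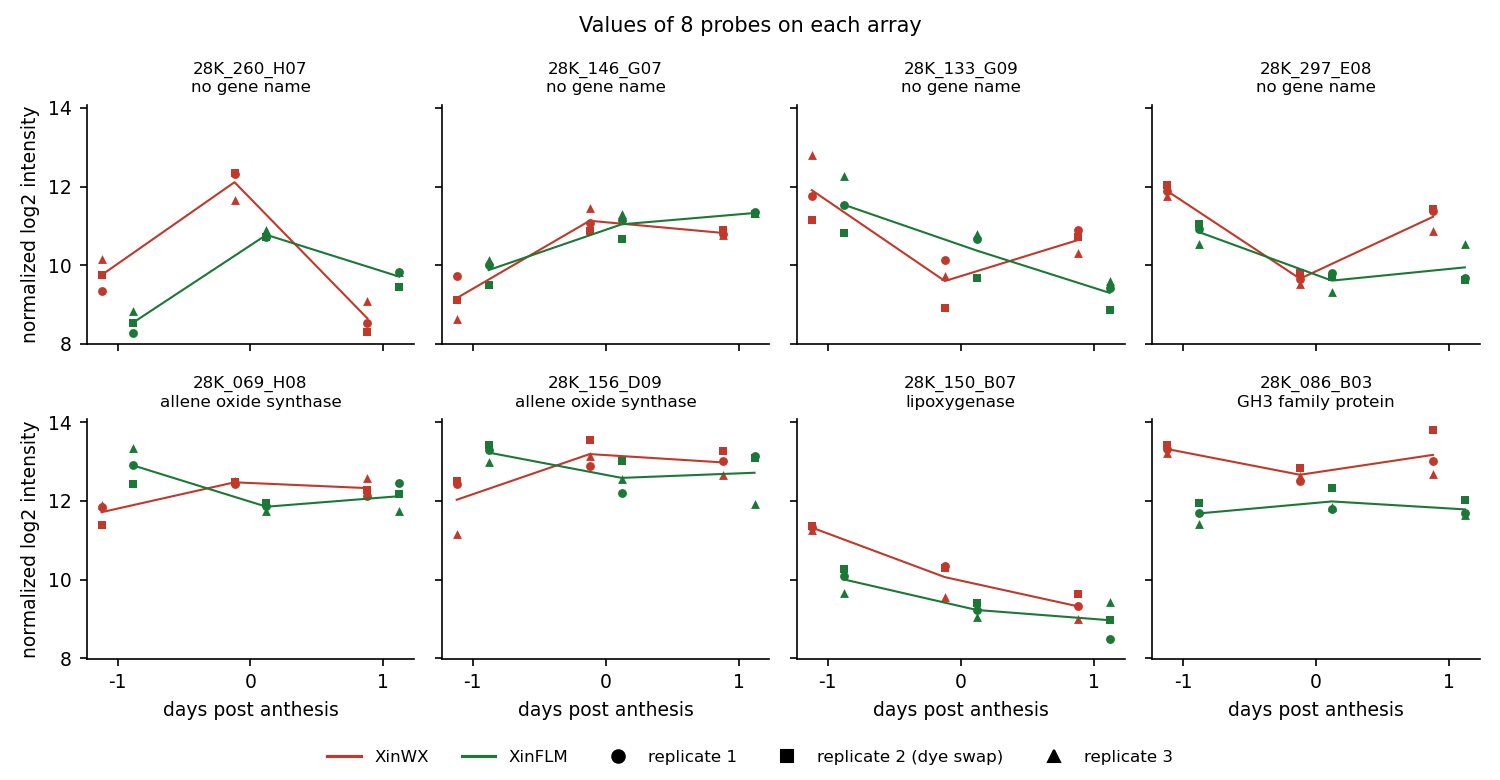
Normalized log2 intensity on each array at -1, 0 and 1 DPA for the 2 probes with the largest rises and the 2 with the largest falls among called probes that reached 400 units in 1 channel on all 6 arrays, both allene oxide synthase probes, lipoxygenase 28K_150_B07 and GH3 probe 28K_086_B03, with XinWX in red, XinFLM in green, marker shapes for the 3 replicates and lines through stage means. The XinWX arrays of -1 and 0 DPA do not overlap for any probe of either row, which was a condition for choosing those of the upper row. For both allene oxide synthase probes only the difference between the lines passed a test, not the change of either line.

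The levels of the 99 probes at 1 DPA are set beside these changes without a test, since the 0 DPA arrays serve both intervals. The rising probes had a median log2 change of -0.13 from 0 to 1 DPA, and the falling probes one of 0.47, beside -0.04 over all probes tested. Of the 54 that rose, 40 had a lower mean at 1 DPA than at 0 DPA, and 41 of the 45 that fell had a higher one. Only 10 and 8 of them, respectively, went back by over 50% of their first change. The mean at 1 DPA was still above that of -1 DPA for 51 of the 54 and still below it for all 45. The probes were chosen by their values at -1 DPA as well as at 0 DPA. Selection alone can therefore place 1 DPA between these stages, and no shares over all probes tested are set beside the counts. The counts describe the lists and do not show that the changes lasted or turned back. Without replicate 3 of 1 DPA the medians were -0.28 and 0.54 (all probes -0.06), and 50 and 44 probes stayed on the side of -1 DPA that they had moved to. Without replicate 1 of 1 DPA the median of the rising probes was -0.02.

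The same probes were then read in the other channel. In XinFLM 166 probes passed the same test between -1 and 0 DPA (0.747%), 122 higher and 44 lower, and 284 passed when the replicate number was a block. Without 1 DPA replicate 3 the count was 368, and without any one of the 6 arrays of -1 and 0 DPA it was 16 to 78. The lines shared 35 probes, which are 35.4% of those of XinWX and 21.1% of those of XinFLM. Both lines were read from the same spots (intraspot correlation 0.783), whose deviations enter both changes, so the same direction of all 35 is not independent evidence, and the values that follow are a description. The 54 probes that rose in XinWX had a median log2 change of 1.29 in XinFLM (range -0.45 to 2.23), and the 45 that fell had one of -0.64 (range -2.10 to 0.38), beside 0.00 over all probes tested. Among them, 5 of the rising and 2 of the falling probes had a change of the opposite sign in XinFLM.

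Passing in one line and not in the other does not show a difference, so the change of the log ratio of XinWX over XinFLM within arrays was tested. It differed between -1 and 0 DPA for 1604 probes (FDR under 0.05, 7.22%), with a more positive change in XinWX for 627 (2.82%) and a more negative one for 977 (4.4%). Of the 99 probes, 48 were among them, 17 of the 54 that rose and 31 of the 45 that fell, and the change was larger in XinWX for all 48. Since the 99 were chosen by the XinWX change that is part of this difference, that share is a description. With replicates 1 and 2 averaged the count over all probes was 417, with replicates 2 and 3 averaged it was 2784, and without 1 DPA replicate 3 it was 2454. It was 911 and 991 without replicates 1 and 2 of -1 DPA and 727 and 753 without those of 0 DPA. Of the 64 probes that passed in XinWX and not in XinFLM, 47 passed the test of the difference and 17 did not.

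**Figure D3:**
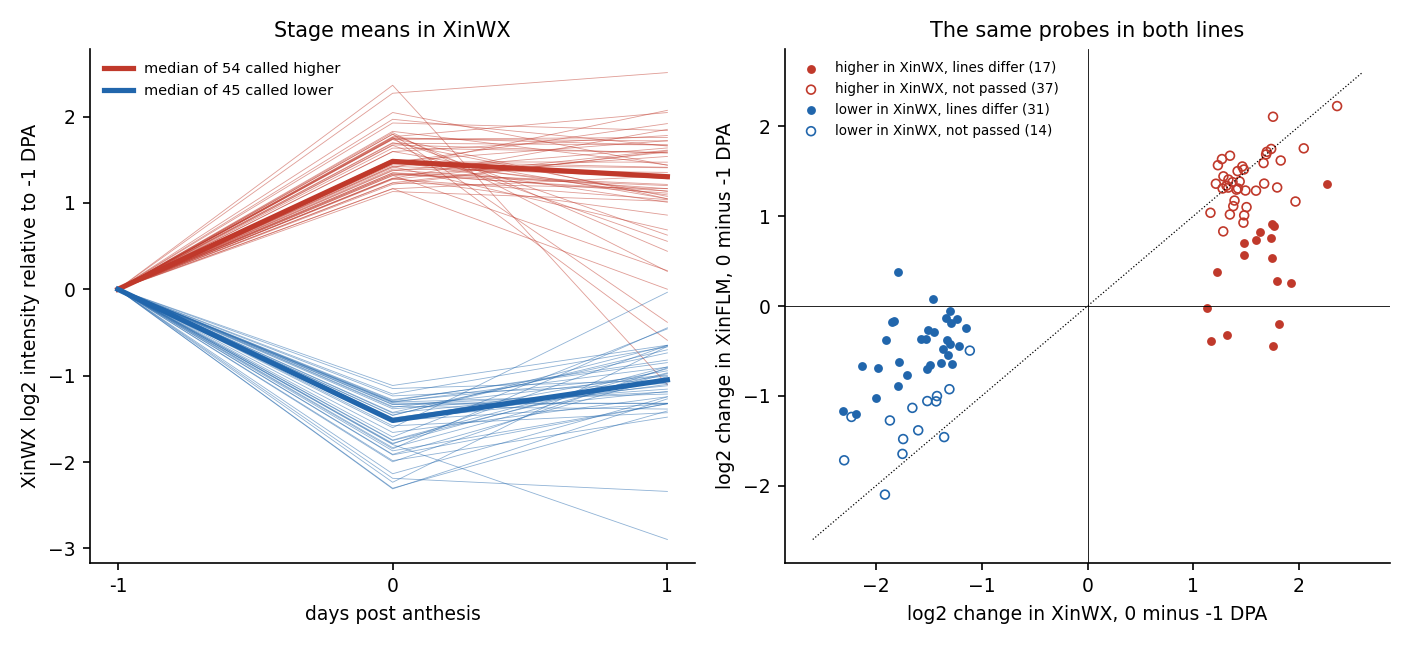
Left, XinWX stage means of the 54 rising (red) and 45 falling (blue) probes on the log2 scale relative to -1 DPA, with thick lines for the medians. Right, log2 change from -1 to 0 DPA in XinFLM against that in XinWX for the same 99 probes, filled where the lines differed at an FDR under 0.05 and with the line of equal change dotted. Filled points number 17 among the rising and 31 among the falling probes.

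None of the 18 probes with a gene name passed the test in XinWX, where their FDR ran from 0.189 to 0.985. The median log2 change was -0.26 in XinWX and 0.13 in XinFLM, 5 had positive and 13 negative values in XinWX, and 4 had an unadjusted p under 0.05. In 9 of them the arrays of the 2 stages did not overlap, 2 with 0 DPA above and 7 with it below, beside 20.7% of all probes tested. The test of the difference between the lines was passed by 8 of the 18, beside 7.22% of all probes, but the study picked most of these genes on the same arrays, so their number is no independent evidence. All 18 had at least 400 units in XinWX on each of the 6 arrays.

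Allene oxide synthase, which makes the unstable epoxide from which the cyclic JA precursor is formed, had 2 probes. For both the change differed between the lines, more positive in XinWX, while neither line's own change passed. Probe 28K_069_H08 gave normalized log2 values of 11.85, 11.39 and 11.90 at -1 DPA and 12.44, 12.48 and 12.50 at 0 DPA in XinWX. All 3 arrays of 0 DPA were higher, by 0.76 in the mean (95% confidence interval 0.06 to 1.46), which did not pass (FDR = 0.465 in limma). In XinFLM the values were 12.92, 12.43 and 13.35 at -1 DPA and 11.86, 11.96 and 11.74 at 0 DPA, a log2 change of -1.05 (FDR = 0.205). The order of the lines turned between the stages, and the changes differed by 1.81 on the log2 scale (SE 0.24, FDR = 0.000464), a 3.50-fold shift of the ratio toward XinWX. Real-time quantitative PCR (RT-qPCR) in the study gave a different order at -1 DPA. It found both allene oxide synthase genes significantly higher in XinWX from -1 to 1 DPA, most of all at -1 DPA. The reason for this discrepancy was not tested.

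Probe 28K_156_D09 gave log2 values of 12.43, 12.52 and 11.15 at -1 DPA and 12.88, 13.55 and 13.15 at 0 DPA in XinWX. The arrays did not overlap, replicate 3 of -1 DPA was the lowest by far, and the change of 1.16 (95% confidence interval 0.31 to 2.02) did not pass (FDR = 0.288 in limma). With replicates 1 and 2 alone it was 0.74, and on the replicate 3 arrays it was 2.01. In XinFLM the log2 change was -0.64 (FDR = 0.713), and the changes differed by 1.81 (SE 0.26, FDR = 0.000855). Over the 29 alternative settings the FDR of the difference was at most 0.0149 for 28K_069_H08 and 0.0229 for 28K_156_D09.

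The other 3 probes for JA synthesis had negative values in both lines, and none passed a test. Lipoxygenase, which oxygenates the fatty acid, was represented by 28K_150_B07 with 3347.5, 3413 and 1946.5 units at -1 DPA and 1391, 1248.5 and 665 units at 0 DPA. This was the largest change in XinWX of a probe with a gene name, a log2 change of -1.26 (SE 0.39) with no overlap of the arrays. It was -1.01 with replicates 1 and 2 alone and -1.71 on the replicate 3 arrays. Its FDR in limma was 0.189 with all 9 arrays. The probe was called in 2 alternative settings and not in 27 others. Those 2 were the arrays of -1 and 0 DPA alone (FDR = 0.0236) and leaving out replicate 3 of 1 DPA (FDR = 0.0230). The FDR was 0.0663 with replicates 1 and 2 alone and 0.751 with these replicates averaged. The second lipoxygenase probe, 28K_275_B02, had overlapping arrays and a log2 change of -0.56 (FDR = 0.804), which was -0.84 with replicates 1 and 2 alone and 0.02 on the replicate 3 arrays. Probe 28K_299_E12 of 12-oxophytodienoate reductase 3, which reduces the cyclic precursor, had a log2 change of -0.73 (FDR = 0.619), also with overlap. In XinFLM the log2 changes of 28K_150_B07, 28K_275_B02 and 28K_299_E12 were -0.78, -0.87 and -0.07, and their difference between the lines did not pass (FDR = 0.340, 0.532 and 0.158). RT-qPCR in the study found all 3 genes higher in XinWX from -1 to 1 DPA. On every array of both stages 28K_150_B07 was higher in XinWX than in XinFLM and 28K_275_B02 lower. Probe 28K_299_E12 was higher in XinWX on every array of -1 DPA and lower on every array of 0 DPA. The reason for these discrepancies was not tested.

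The primers that the study designed for RT-qPCR are shown for both allene oxide synthase probes and for a further pair. Those of 28K_150_B07 and 28K_299_E12, listed as different genes, largely coincide. No sequences of the array probes were used here, so where the primers lie relative to them is not known. All primers are written from 5′ to 3′. Capitals mark the longest run shared by the forward or by the reverse primers of 28K_150_B07 and 28K_299_E12. The run is 17 bases in both cases, against at most 8 bases between any other probes of the 18. Whether the 2 array probes share sequence was not examined, so they may not be independent readings.
28K_069_H08 forward: ctacaccgttcattagca
28K_069_H08 reverse: tacaccaccgatttcatc
28K_156_D09 forward: attcacatcacctttcctaa
28K_156_D09 reverse: gcttgtaattggctcaac
28K_150_B07 forward: CTCGGACTACTTACCATttc
28K_299_E12 forward: gCTCGGACTACTTACCAT
28K_150_B07 reverse: TCACCTGCTCAGATGTAa
28K_299_E12 reverse: cTCACCTGCTCAGATGTA

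Both GH3 probes had lower values at 0 DPA on every XinWX array. Probe 28K_086_B03, the brighter, gave log2 values of 13.33, 13.42 and 13.21 at -1 DPA and 12.51, 12.85 and 12.64 at 0 DPA, a change of -0.66 (SE 0.29) that did not pass (FDR = 0.471 in limma). In XinFLM its log2 change was 0.31, and the changes differed by -0.96 (SE 0.20, FDR = 0.00857). That call was lost in 3 of 29 alternative settings, among them replicates 1 and 2 averaged (FDR = 0.0894) and without 0 DPA replicate 2 (FDR = 0.0509). Probe 28K_236_A10 had a log2 change of -0.54 in XinWX (FDR = 0.677) and of 0.07 in XinFLM, and the difference did not pass (FDR = 0.160).

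Among the probes for brassinosteroid signaling, sterol synthesis and auxin response, 2 of 3 differed between the lines, beside 7.22% of all probes, and only 1 of them in all 29 alternative settings. The probe of BAK1 (28K_164_D07), a co-receptor kinase of the brassinosteroid receptor in Arabidopsis, gave 1426, 2517.5 and 1054.5 units at -1 DPA and 975, 897 and 810 units at 0 DPA in XinWX. The arrays did not overlap, and the log2 change of -0.63 did not pass (FDR = 0.684), while that in XinFLM was 0.37. The changes differed by -1.00 (SE 0.27, FDR = 0.0354), a call lost in 8 of 29 alternative settings, among them leaving out any one of the 6 arrays (FDR from 0.0511 to 0.118). Sterol 14-demethylase (28K_096_A10), a cytochrome P450 enzyme of sterol synthesis, had log2 values of 12.57, 12.29 and 11.86 at -1 DPA and 12.06, 11.99 and 11.99 at 0 DPA. These overlapped, its change was -0.23 in XinWX and 0.84 in XinFLM, and the difference of -1.07 (SE 0.19, FDR = 0.00299) passed in all 29 settings. ARF7 (28K_256_D11), an auxin response factor that binds promoters of auxin-regulated genes, had log2 changes of -0.30 in XinWX and 0.14 in XinFLM, and the difference did not pass (FDR = 0.143).

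For the lipid transfer protein, benzoquinone reductase and ABC transporter probes the change differed between the lines, more negative in XinWX, while neither line's own change passed (XinFLM FDR = 0.464, 0.243 and 0.112). The lipid transfer protein 28K_179_F11, of a family that carries lipids toward the cell surface, gave log2 values of 12.08, 11.83 and 12.66 at -1 DPA and 12.30, 11.99 and 11.78 at 0 DPA in XinWX, against 12.64, 12.35 and 13.18 and then 13.70, 13.12 and 13.53 in XinFLM. The XinWX arrays overlapped, and the XinWX change of -0.17 was 0.18 with replicates 1 and 2 alone and -0.88 on the replicate 3 arrays. The changes differed by -0.89 (SE 0.18, FDR = 0.00808 in limma). Benzoquinone reductase 28K_233_A03, an enzyme that reduces quinones, had log2 changes of -0.17 in XinWX and 0.82 in XinFLM, which differed by -0.99 (FDR = 0.00736). Those of the ABC transporter 28K_057_D05, a membrane pump by its family, were -0.12 and 0.88 and differed by -1.00 (SE 0.16, FDR = 0.00182). With replicates 1 and 2 averaged the differences of 28K_179_F11 and 28K_233_A03 had an FDR of 0.0796 and 0.0852. Over the 29 settings the call was lost in 1 for 28K_179_F11 and in 2 for 28K_233_A03, whereas the difference of 28K_057_D05 passed in all. Cystathionine gamma-synthase, which acts in methionine synthesis, had the probe 28K_167_D03, the brightest of the 18. Its log2 changes were -0.49 in XinWX and 0.42 in XinFLM, and the difference did not pass (FDR = 0.0626).

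The 4 probes chosen in the study as not differing between the lines stayed within 0.29 of zero on the log2 scale in XinWX. They are annotated as 3-beta-hydroxy-delta5-steroid dehydrogenase (28K_001_D11), structural constituent of nuclear pore (28K_141_D12), arginine/serine-rich splicing factor (28K_118_C05) and 60S ribosomal protein L30 (28K_206_B07). Their XinWX changes were 0.06, 0.26, -0.29 and 0.16, and the lowest FDR was 0.832. None of the differences between the lines passed (lowest FDR = 0.526). They were selected on these arrays and are not an independent control.

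**Figure D4:**
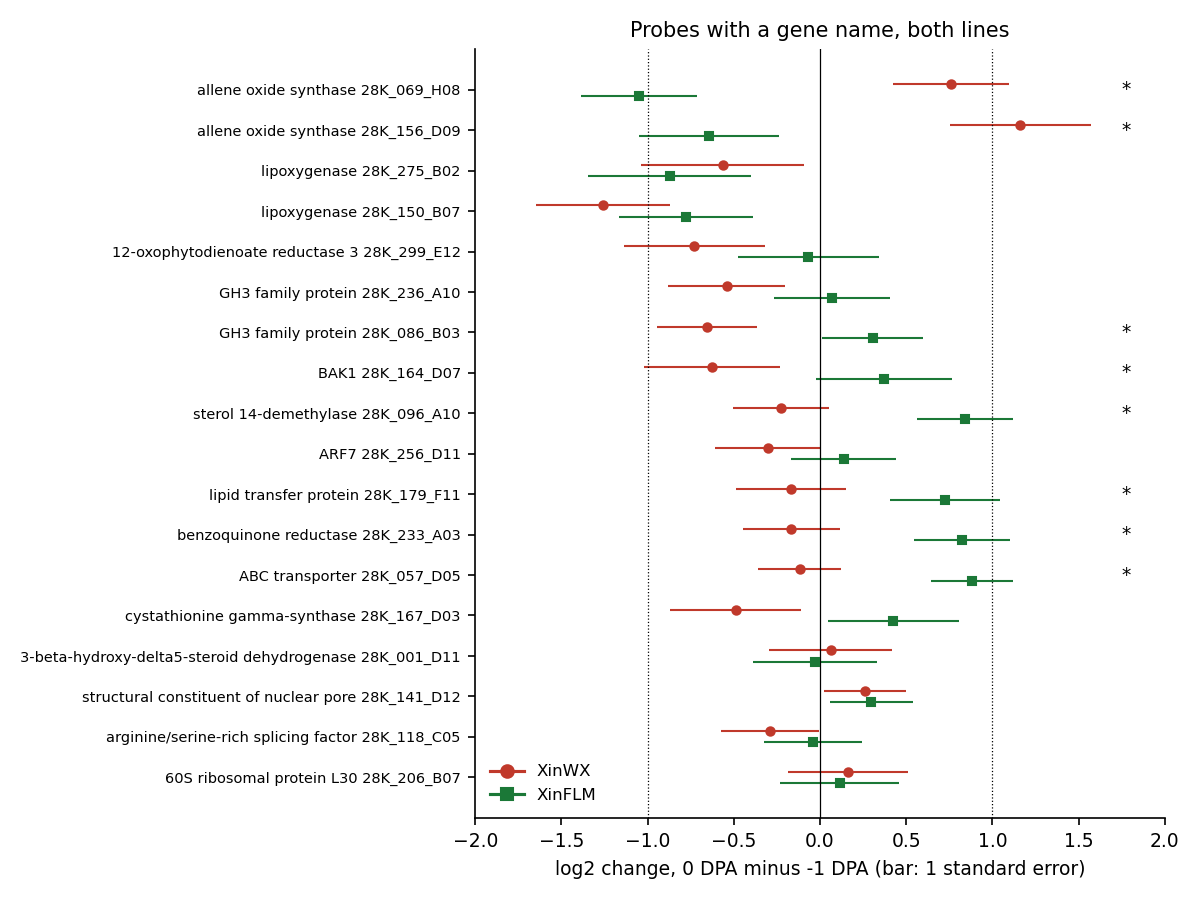
Log2 change from -1 to 0 DPA of the 18 probes with a gene name in XinWX (red circles) and XinFLM (green squares), with bars of 1 SE, dotted lines at 2-fold and an asterisk where the changes of the lines differed at an FDR under 0.05. Asterisks mark 8 probes, and only the 2 allene oxide synthase probes among them have the higher value in XinWX.

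Some probes crossed the limit of 400 units in XinWX. On all 3 arrays of -1 DPA 40 of the 29183 probes were under it and on all 3 arrays of 0 DPA at or above it, and 97 probes did the opposite. The units are those before normalization, so the brightness of each array enters these counts, and its part in them was not tested. The counts were 58 and 59 in XinFLM, and 19134 probes were above the limit in XinWX on all 6 arrays. Of the 40 only 8 entered the test, of which 2 passed, and of the 97 only 23, of which 2 passed. Over all probes tested 0.445% passed. The 40 and the 97 were picked by XinWX values that the test also uses, so these shares are a description. At the faint stage such probes entered the test only through the XinFLM channel. For these probes the faint side gives only a bound, and the fold change of the 4 that passed was at least 1.73 to at least 3.84, with 1 bound under 2. The bound sets the mean of the bright stage against, on each array, the higher of the probe's own normalized value and the lowest value of a probe that reached the limit. Leaving out 1 array gave 53 to 112 probes for the first count and 116 to 354 for the second, the highest without -1 DPA replicate 1 and without -1 DPA replicate 3. With fewer arrays to satisfy, these counts can only stay equal or rise, so they are no check of the 40 and the 97.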

How the data were processed

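XinWX and XinFLM ovules were compared on 9 dual-dye arrays. The deposited scanner files give spot intensity and local background for both dyes, as written by the authors' image software and without normalization. A second deposited table contains the authors' within-array normalized log2 ratios, Cy5 over Cy3. Over spots of at least 400 units these correlated with the ratios computed here at r = 0.944 to 0.998 per array, with medians near zero, and were used as an alternative. The authors' tools were limma 3.4.5 under R 2.12.2, per the submitters' processing notes.

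Of 30000 spots per array, 29184 held probes, and the 2 spots that shared a probe name were averaged. In limma 3.58.1 (R 4.3.3, statmod 1.5.0) the background was corrected with normexp (offset 50), and ratios were normalized by loess within arrays (span 0.3, 4 iterations, spots faint in both channels and control spots at weight 0) and by Aquantile across arrays. Loess makes most spots balance between the lines and Aquantile gives all arrays the same distribution of mean intensities, so a change shared by most transcripts would not be seen. Changes within a line came from the separate-channel analysis (intraspot correlation 0.783) with 1 coefficient for each line and stage. Faint intensities entered this fit, and they were left out of the fit of log ratios that gave the difference between the lines. The Benjamini-Hochberg adjustment covered all 22227 probes tested. The spread was estimated over all 9 arrays. Alternatives changed the background correction, the faint filter (including the lowest scanner flag), both normalizations, the terms and arrays in the fit, the averaging of replicates and the threshold.

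In XinWX the deviations from the stage mean of arrays with the same number at -1 and 0 DPA were positively correlated (r = 0.100, 0.180 and 0.369 across probes), the first only just above the limit of 0.1 set for pairing, and replicate 1 of -1 DPA correlated more with replicate 2 of 0 DPA (0.300). The pairing rests on these data alone, and blocked counts are given where they differ by over 1.5 times. In simulated data with 22227 probes, modelled on XinWX between -1 and 0 DPA and taking each array as a separate sample, 14.9% of changes of log2 1 were called, 59.7% of log2 1.5 and 81.8% of log2 2. The changed probes numbered 67, 67 and 66 at these sizes, and the noise was normal, independent between arrays and equally wide on each. The simulation had no deviating replicate 3, so the rates may not hold for these arrays. The number of arrays limits the precision. Probes named were those with a gene name in the study and, among the called probes with at least 400 units in 1 channel on all 6 arrays and with no overlap of the stages, the 2 with the largest fold in each direction. These probes and the lists were chosen with earlier results of these data known. Python 3.11.15 with matplotlib 3.10.9 was used for plotting.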

Additional observations from a re-analysis of the deposited data

Results flagged for a closer look

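The change from -1 to 0 DPA differed between XinWX and XinFLM for 1604 probes, by limma's test of the change of the log ratio. Among the probes named above, the difference (XinWX minus XinFLM, log2) was 1.81 for each allene oxide synthase probe (28K_069_H08 and 28K_156_D09), and it was negative for 7 others. It was -0.96 for GH3 28K_086_B03, -1.00 for BAK1 28K_164_D07, -1.07 for sterol 14-demethylase 28K_096_A10, -0.89 for lipid transfer protein 28K_179_F11, -0.99 for benzoquinone reductase 28K_233_A03, -1.00 for ABC transporter 28K_057_D05 and -1.14 for 28K_133_G09, which has no gene name here. The last of these did not pass where faint spots were kept (FDR = 0.0891). Groups of 3 arrays are too small for a test of single outlying samples.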

How the results depend on the processing

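The number of probes called in XinWX stayed within 1.5 times the main 99 in 15 of 31 alternatives. It was 1 with no normalization between arrays, 0 with replicates 1 and 2 averaged (XinFLM 3, difference between the lines 417), 31 from the XinWX channel alone, 237 with replicates 2 and 3 averaged (difference 2784), 258 with the replicate block, 424 with 6 arrays alone and 714 at an unadjusted p under 0.05 with a 2-fold change. The difference between the lines had 540 probes with no filter on faint spots. XinFLM had 21 with no normalization between arrays, 104 with scale normalization, 284 with the replicate block and 422 with 6 arrays alone. Alternatives chosen after seeing the data were a term for the replicate 3 arrays (263 in XinWX, 302 in XinFLM) and replicates 1 and 2 alone. The latter gave 330 in XinWX, 307 in XinFLM and 5276 for the difference. These counts would rest on technical spread alone if replicates 1 and 2 shared an extract. The values of named probes on the replicate 3 arrays alone were also chosen after seeing the data. Leaving out 1 array gave 1 to 361 in XinWX, 16 to 368 in XinFLM and 727 to 2454 for the difference. The median change from 0 to 1 DPA kept its sign, from -0.28 to -0.02 for the rising and 0.47 to 0.54 for the falling probes when 1 array was left out, -0.41 and 0.24 with no normalization between arrays and -0.34 for the rising probes with replicates 1 and 2 alone. Counts of probes crossing 400 units were 53 to 112 (rising) and 116 to 354 (falling) with 1 array left out, where they can only stay equal or rise.

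Named changes in XinWX that turned sign in a refit were not called in any setting: 28K_179_F11 (-0.35 to 0.0693 with 1 array left out, 0.18 with replicates 1 and 2 alone), 28K_057_D05 (-0.19 to 0.0141), 28K_001_D11 (-0.0029 and -0.0125 with replicates 1 and 2 or 2 and 3 averaged, -0.17 to 0.18 with 1 array left out) and 28K_206_B07 (-0.15 to 0.40). On the replicate 3 arrays alone, with no test, 28K_275_B02 (0.02) and 28K_096_A10 (0.13) had the opposite sign too. No called difference of a named probe turned sign, and 15 of 261 such values lost the call. The cause of these changes was not tested. The block changed no other count by over 1.5 times. Among the 29 refits, 92 of the 99 probes were called in at least 15, and the median probe in 20.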
